A study of Homo sapiens with 6 samples.

Results

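In T24 cells, a bladder cancer line treated with siRNAs to the circular RNA circ235, 10 genes of cAMP and Rap signalling were followed out of 58288 in the count table. RAPGEF3 (also called EPAC1) was chosen because it was lower under both siRNAs in these same libraries. The 9 others were listed with it by function: the Rap exchange factors RAPGEF1, RAPGEF2 and RAPGEF6, the GTPases RAP1A and RAP1B, and the protein kinase A subunit genes PRKACA, PRKACB, PRKAR1A and PRKAR2A. All 10 passed the filter on low counts, as did 14415 genes in all. Cells received a control siRNA (NC) or si-circ235-1 or si-circ235-2, which both target the back-splice junction of circ235, by transient transfection. Each condition had 2 libraries, labelled as biological replicates, with no word on separate cultures, so p-values measure the spread between these libraries. Polyadenylated RNA was sequenced, so circ235 itself was not measured and the knockdown could not be checked in the counts.

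cAMP acts inside cells mainly through protein kinase A and the EPAC exchange factors. RAPGEF3 binds cAMP and then loads GTP onto the small GTPases RAP1A and RAP1B, which control cell adhesion and junctions. In protein kinase A, regulatory subunits such as PRKAR1A and PRKAR2A hold the catalytic subunits PRKACA and PRKACB inactive until cAMP binds. RAPGEF1, RAPGEF2 and RAPGEF6 load the same GTPases but are not activated by cAMP in the way RAPGEF3 is.

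The libraries held 15373992 to 19912893 counts, and the TMM factors ran from 0.89 to 1.19. The epithelial keratins KRT7, KRT8 and KRT18 were at 737 CPM (counts-per-million, here on plain library totals) or more in every library, whereas KRT19 had at most 1 count. EPCAM, listed with these keratins, was at 1.16 to 3.03 CPM. VIM and CD44, listed for the mesenchymal state of T24, were at 594 to 1349 and at 546 to 1284 CPM. Of the 7 urothelial markers, PPARG and FOXA1 were above 1 CPM in every library, and UPK3A was at 0. The summed urothelial level, mostly PPARG, was 24.4 to 26.7 CPM in NC, 38.9 to 45.4 under si-circ235-1 and 59.8 to 65.3 under si-circ235-2, and its part in the results was not tested. Blood markers were at 0.19 CPM or less in sum, with PTPRC and CD3E at 0, and the endothelial and fibroblast sums were at most 2.36 and 1.35.

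In the study, circ235 was examined as a sponge of miR-330-5p, so the members' 3′ UTRs were searched for the word CCCAGAG, which pairs with nucleotides 2 to 8 of this microRNA (the seed). The mature sequence (RefSeq, GRCh38.p14), with its seed in capitals, and the member sites (GENCODE 29, GRCh38, sense strand written as DNA), with the paired word in capitals, are shown because the search bears directly on the microRNA the study followed.
miR-330-5p: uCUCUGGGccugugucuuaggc
RAPGEF3 first site, chr12:47736990-47737012, minus strand: tatgttccaggccagCCCAGAGt
RAPGEF3 second site, chr12:47735442-47735464, minus strand: gggggccaggccactCCCAGAGg
RAP1B site, chr12:68665263-68665285, plus strand: ctgtgtgaaagataaCCCAGAGa
PRKACA site, chr19:14093013-14093035, minus strand: gaacagccagagggcCCCAGAGt
PRKAR2A first site, chr3:48751566-48751584, minus strand: gtgtgccacacCCCAGAGc
PRKAR2A second site, chr3:48750927-48750949, minus strand: ccagcaggtcagcacCCCAGAGc

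The word was found in the longest 3′ UTR of 4 of the 10 genes, against 20.5% of 12143 tested genes with an annotated 3′ UTR. Only the sense strand was searched. These UTRs were 3200 nucleotides long in RAPGEF3, 12652 in RAP1B, 1424 in PRKACA and 5006 in PRKAR2A, and the median over the tested genes was 1342. In the members without the word the UTRs ran from 2035 (RAPGEF2) to 4290 (RAP1A). Of the genes with the word, RAPGEF3 was lower under both siRNAs, which is how it was chosen. RAP1B and PRKAR2A were higher with si-circ235-2, and PRKACA passed the test in no comparison. A link between the word and these changes was not tested. A matching word is a description and not a measured site.

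RAPGEF3 (ENSG00000079337.15, minus strand of chromosome 12, 47734367 to 47771040 in GRCh38, the build of all positions here) was lower in all 4 siRNA libraries than in either NC library. In TMM-scaled CPM, the unit used from here on, it was at 277 and 222 in NC, at 129 and 126 with si-circ235-1, and at 142 and 137 with si-circ235-2. The NC libraries differed from each other by more than the siRNA libraries did, with 249 ± 39.0, 128 ± 2.21 and 139 ± 3.57 CPM (mean ± SD, n = 2 each). Fitted log2 fold changes against NC were -0.96 (SE 0.19) and -0.84 (SE 0.18), that is 1.95-fold and 1.79-fold lower. These values selected the gene, so no test is given for them. In bulk RNA, a lower level per cell and fewer cells with the transcript cannot be told apart. Library totals alone, without TMM factors, gave -0.57 for si-circ235-2, and without NC replicate 1 the values were -0.80 and -0.68.

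**Figure D1:**
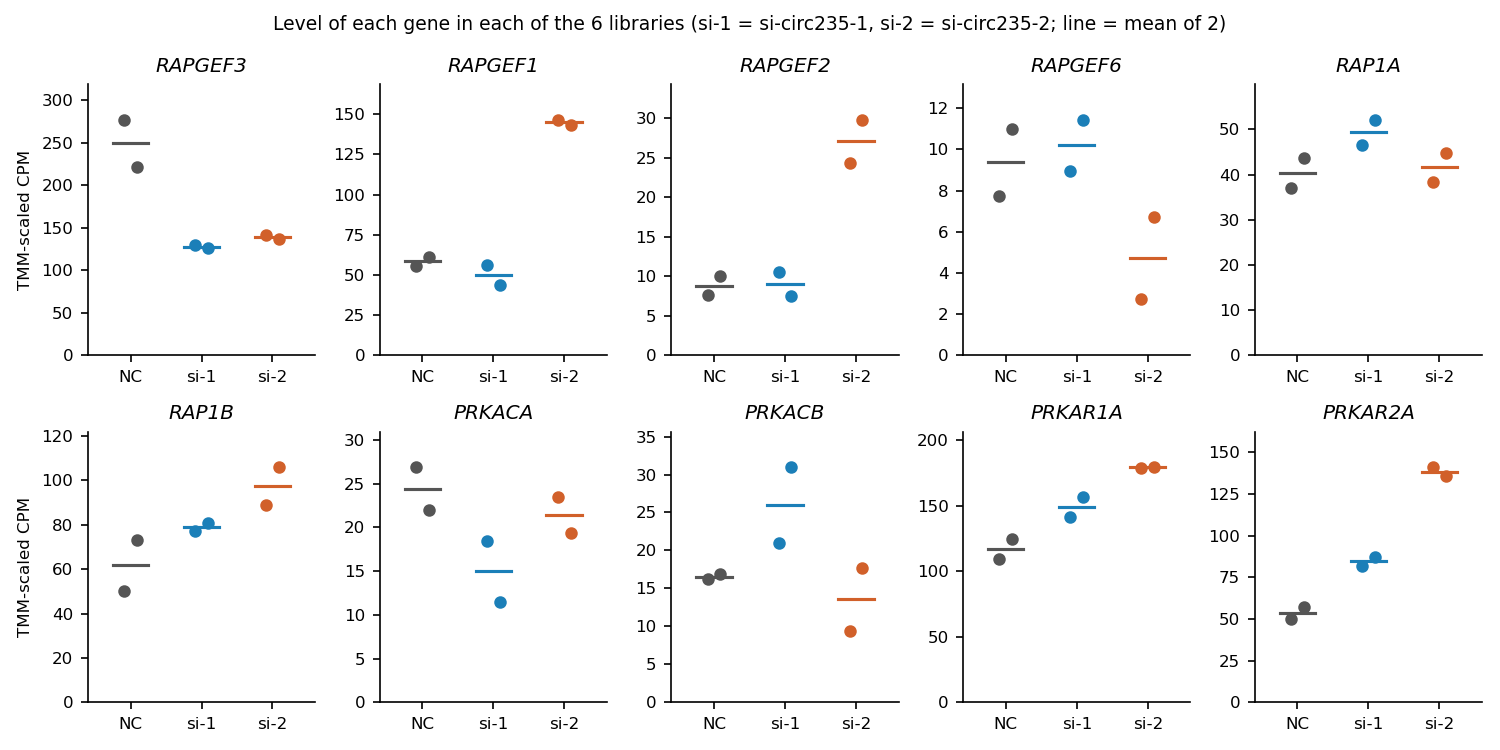
TMM-scaled CPM of the 10 genes in each library, with 1 dot per library and a line at the mean of the 2 libraries of NC, si-circ235-1 (si-1) and si-circ235-2 (si-2); each panel starts at 0 and has its own scale. RAPGEF3 is at 277 and 222 CPM in NC and between 126 and 142 in the siRNA libraries, while RAPGEF1, RAPGEF2 and PRKAR2A are highest with si-circ235-2.

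SLC48A1, a haem transporter gene on the opposite strand of chromosome 12 (47753916 to 47782753), overlaps RAPGEF3 over 17125 bases of the 2 gene spans. The libraries carried no strand information, so reads in shared exons cannot be told apart. Shared exon bases were few: 83 in all, which is 0.687% of the merged exons of RAPGEF3 and 1.69% of those of SLC48A1, and they occur in 5 of 20 RAPGEF3 transcripts and 1 of 9 SLC48A1 transcripts. SLC48A1 stood at 1042 and 911 CPM in NC, at 678 and 579 with si-circ235-1 and at 500 and 437 with si-circ235-2. It did not pass the test with si-circ235-1 (log2 fold change -0.64, SE 0.21, edgeR adjusted p = 0.091) and was lower with si-circ235-2 (-1.06, SE 0.21, adjusted p = 0.0051). The si-circ235-1 change was called by DESeq2 (-0.61, adjusted p = 0.023) and by library totals without TMM factors (-0.71, adjusted p = 0.046), and the si-circ235-2 call was lost without NC replicate 1 (-0.97, adjusted p = 0.051). The antisense gene AC004241.1 shares more, 1836 of the 12078 merged exon bases of RAPGEF3, and had at most 29 counts in any library. How reads in shared exons were counted is not known, so a low count does not show that few were shared or dropped. Among genes over the spans of the other members, INKA2, which lies over RAP1A and shares no exon base with it, was at 9.12 to 11.5 CPM and passed the test in no comparison. The remaining overlapping genes had at most 20 counts in any library, the highest being PRKAR2A-AS1. Among them AC008695.1, on the same strand as RAPGEF6, shares 6112 of the 11125 merged exon bases of RAPGEF6 and had 0 counts. The level of RAPGEF6 carries the same limit as that of RAPGEF3.

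**Figure D2:**
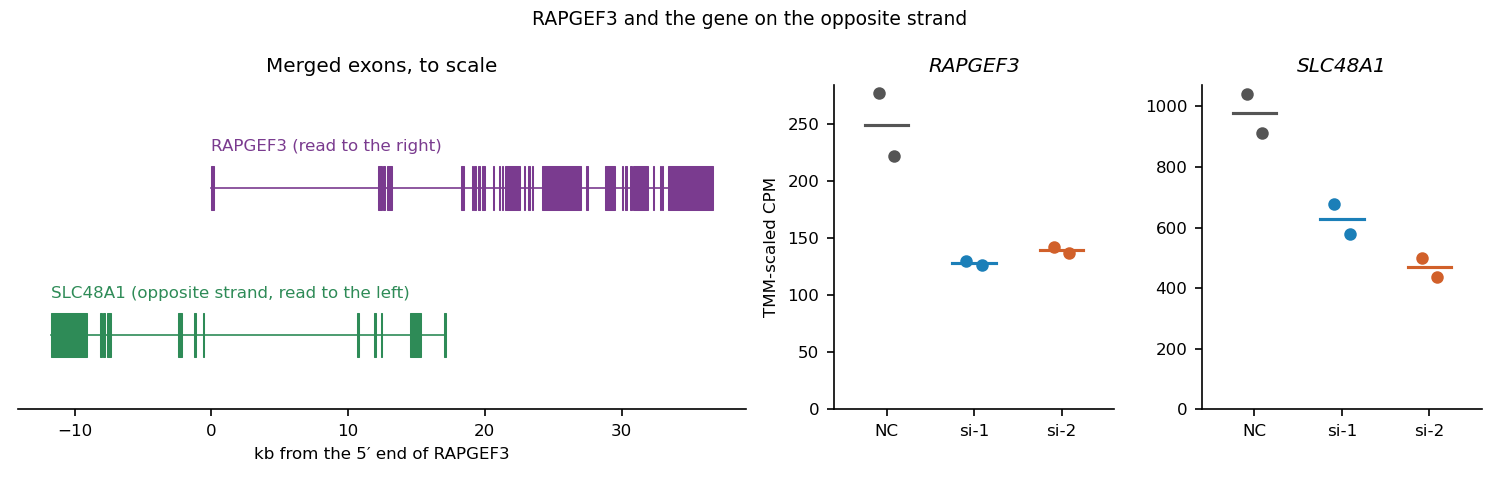
Left, merged exons of RAPGEF3 and SLC48A1 drawn to scale in kb from the 5′ end of RAPGEF3; right, TMM-scaled CPM of each gene per library, with a line at the mean of 2. The exons lie almost entirely apart, with 83 bases shared, and both genes are lower in every siRNA library than in NC.

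Over the 6 libraries, the 5 genes most like RAPGEF3 in log2 CPM, among 10377 genes with a mean of at least 5 CPM, were SAMD10, TOMM40, CMTM7, SCRN2 and DHRS1. Their Pearson r was 0.994 for SAMD10 and TOMM40, 0.992 for CMTM7, 0.991 for SCRN2 and 0.990 for DHRS1, and 93 genes reached 0.95. TOMM40, the channel of the mitochondrial outer membrane translocase, averaged 267 CPM in NC, against 96.6 (si-circ235-1) and 122 (si-circ235-2). SLC48A1 ranked 446th with r = 0.86. Among the 9 other members r ran from 0.68 for PRKACA to -0.84 for PRKAR1A. All points share the same 6 libraries and r is given as a description.

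To compare levels between genes, CPM was divided by kilobases of merged exons. In NC, RAPGEF3 was highest at 20.6 ± 3.23 CPM per kb and PRKAR1A was next at 17.1 ± 1.58, with their nearest libraries at 18.4 and 18.3, so this pair was barely separated. RAPGEF1 (8.35 ± 0.57), PRKAR2A (8.08 ± 0.77) and RAP1A (7.28 ± 0.84) followed, each overlapping its neighbour. PRKACA (3.97 ± 0.57) and RAP1B (3.64 ± 0.97) overlapped as well, and below them stood PRKACB (2.46 ± 0.070), RAPGEF6 (0.84 ± 0.21) and RAPGEF2 (0.66 ± 0.13), the last pair overlapping. With si-circ235-1 the order began with PRKAR1A (21.9), PRKAR2A (12.8) and RAPGEF3 (10.6). With si-circ235-2 it began with PRKAR1A (26.3), PRKAR2A (20.8) and RAPGEF1 (20.7), with RAPGEF3 next at 11.5. The place of RAPGEF3 depends on the length used: per kb of the longest transcript it was at 41.1 in NC against 27.0 for PRKAR1A, and with si-circ235-2 at 23.0, between RAPGEF1 (23.2) and PRKAR2A (21.4). The other EPAC gene, RAPGEF4 (EPAC2), had at most 3 counts in any library and was not tested.

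Of the 9 other members, 0 passed the test with si-circ235-1 by edgeR (quasi-likelihood, p adjusted by Benjamini and Hochberg over all tested genes), while 5.88% of all tested genes did (3.64% lower and 2.24% higher). At an unadjusted p under 0.05 there were 2, PRKACA and PRKAR2A, and DESeq2 called 1, PRKAR2A. With si-circ235-2, 5 were higher and 0 lower, against 31.4% of all tested genes (15.7% lower and 15.7% higher). Between the siRNAs, 3 were higher and 2 lower with si-circ235-2 than with si-circ235-1, against 39.7% of all tested genes (18.6% lower and 21.1% higher). By library totals without TMM factors that split became 5 higher and 0 lower, and the median of all tested genes moved to -0.11, 0.25 and 0.37 in these comparisons, from -0.033, -0.0038 and 0.035. The comparisons share libraries, so their counts are not independent. With 2 libraries per condition, groups that do not overlap are common: 55% of all tested genes for si-circ235-1 against NC, 71.4% for si-circ235-2 against NC and 72.1% between the siRNAs.

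**Figure D3:**
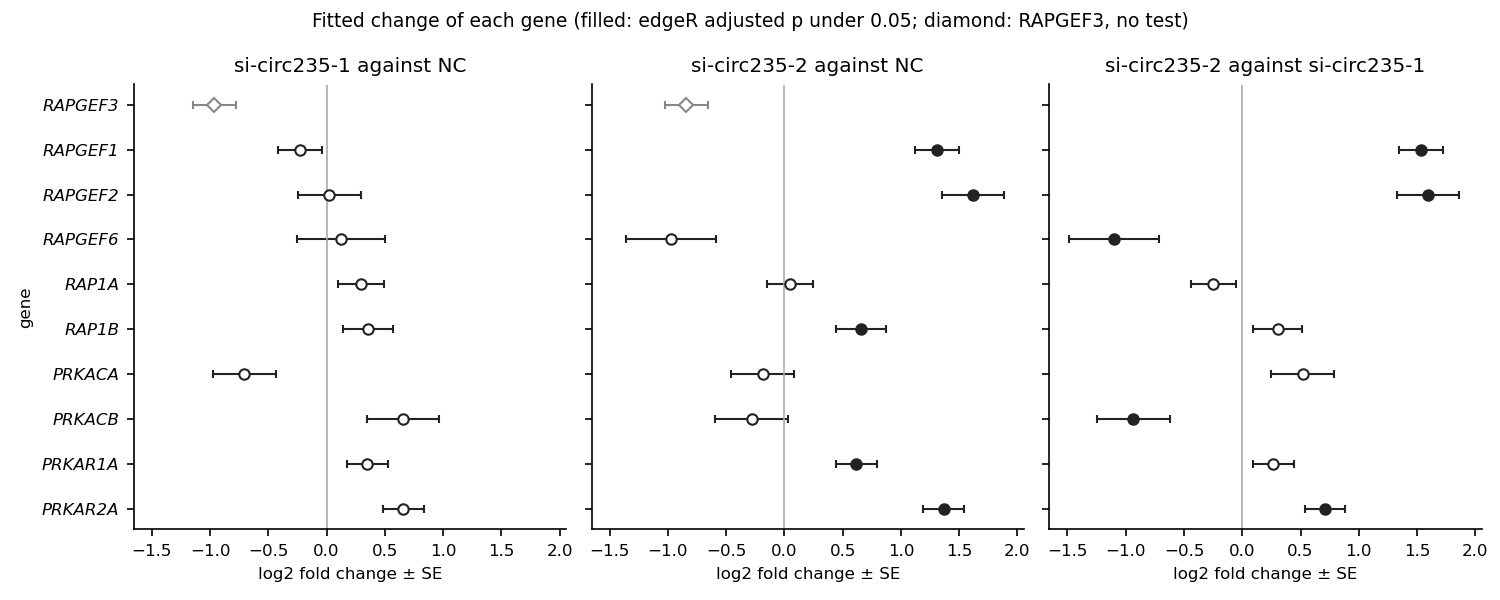
Fitted log2 fold change (x axis, bars ± SE) of the 10 genes in the 3 comparisons; filled symbols passed edgeR at an adjusted p under 0.05, and RAPGEF3 is a diamond without a test. No circle is filled for si-circ235-1, and 5 are filled on the higher side for si-circ235-2.

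RAPGEF1 (chromosome 9, 131576770 to 131740074, minus strand), an exchange factor recruited by adaptor proteins downstream of growth factor and integrin receptors, was higher with si-circ235-2 alone. Its levels were 55.6 and 61.3 CPM in NC, 56.3 and 43.8 with si-circ235-1, and 147 and 143 with si-circ235-2. The si-circ235-2 libraries were above all 4 others. The fitted log2 fold change was 1.31 (SE 0.19, adjusted p = 0.0021) against NC and 1.54 (SE 0.19, adjusted p = 0.00056) against si-circ235-1, whereas si-circ235-1 against NC gave -0.23 (SE 0.19, adjusted p = 0.50).

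RAPGEF2 (chromosome 4, 159103013 to 159360174, plus strand), a membrane-associated Rap exchange factor with a PDZ domain, had 7.61 and 10.02 CPM in NC, 10.5 and 7.48 with si-circ235-1, and 24.4 and 29.8 with si-circ235-2. NC and si-circ235-1 overlapped, and both si-circ235-2 libraries stood above them. The log2 fold change was 1.62 (SE 0.27, adjusted p = 0.0029) for si-circ235-2 against NC and 1.60 (SE 0.27, adjusted p = 0.0015) against si-circ235-1.

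RAPGEF6 (chromosome 5, 131423921 to 131635236, minus strand), a close relative of RAPGEF2, went the other way between the siRNAs. It was at 7.74 and 11.001 CPM in NC, at 8.95 and 11.4 with si-circ235-1, and at 2.71 and 6.74 with si-circ235-2. The si-circ235-2 libraries were the lowest but differed widely from each other. It was lower with si-circ235-2 than with si-circ235-1 (log2 fold change -1.10, SE 0.39, adjusted p = 0.043) and did not pass against NC (-0.98, SE 0.39, adjusted p = 0.078). Once each library was corrected for a smooth dependence on transcript length and GC (called the length and GC trend here), it passed against NC too (-1.47, adjusted p = 0.0075), as it did without si-circ235-2 replicate 2 (-1.79, adjusted p = 0.0024). Without si-circ235-2 replicate 1 the value against NC was -0.48 (adjusted p = 0.34), and without NC replicate 2 it was -0.70 (adjusted p = 0.29). The difference between the siRNAs lost its call without si-circ235-1 replicate 2 (-0.92, adjusted p = 0.21), si-circ235-2 replicate 1 (-0.60, adjusted p = 0.20), si-circ235-1 replicate 1 (-1.26, adjusted p = 0.074) or NC replicate 1 (-1.10, adjusted p = 0.051), and by library totals without TMM factors (-0.74, adjusted p = 0.19). It was -1.91 without si-circ235-2 replicate 2. With only the libraries of the 2 siRNAs in the fit, RAPGEF6 was not called between them (-1.07, adjusted p = 0.10).

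RAPGEF3 took a smaller share of the reads counted for these 4 exchange factors. This share needs no library scaling. It was 79.6% (95% Wilson interval 78.5 to 80.7) and 72.9% (71.7 to 74.1) in NC, 63.1% (61.3 to 64.8) and 66.8% (65.2 to 68.4) with si-circ235-1, and 44.9% (43.6 to 46.3) and 43.2% (42.0 to 44.3) with si-circ235-2. The 3 conditions did not overlap, and since RAPGEF3 was selected on its lower level, the share is a description; intervals cover counting error only. The share is of reads, so longer genes weigh more in it.

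RAP1A (chromosome 1, 111542218 to 111716691) and RAP1B (chromosome 12, 68610839 to 68671901), both on the plus strand, code for nearly identical GTPases, and how the authors' counting treated reads shared with their processed copies is not given in the sources used here. RAP1A was at 37.0 and 43.6 CPM in NC, at 46.7 and 52.1 with si-circ235-1, and at 38.4 and 44.9 with si-circ235-2. No comparison passed, and the log2 fold change of si-circ235-2 against NC was 0.047 (95% interval -0.38 to 0.48). RAP1B was at 50.1 and 73.3 CPM in NC, at 77.2 and 80.7 with si-circ235-1, and at 88.7 and 106 with si-circ235-2. Its libraries did not overlap between any of the conditions. RAP1B was higher with si-circ235-2 than in NC (0.66, SE 0.21, adjusted p = 0.037), but the call was lost when NC replicate 1 was left out (0.40, adjusted p = 0.28), when si-circ235-2 replicate 2 was (0.52, adjusted p = 0.17), without either si-circ235-1 library (0.65, adjusted p = 0.062 and 0.060) and after removal of the length and GC trend (0.36, adjusted p = 0.23). The RAP1B call was also lost with only the libraries of NC and si-circ235-2 in the fit (0.66, adjusted p = 0.061). RAP1B took 57.5% and 62.7% of the reads of this pair in NC, 62.3% and 60.7% with si-circ235-1, and 69.8% and 70.3% with si-circ235-2.

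The members PRKAR1A and PRKAR2A were higher with si-circ235-2 than in NC. Of the regulatory subunit genes outside the members, PRKAR1B was lower (log2 fold change -1.09, edgeR adjusted p = 0.0053). PRKAR2B did not pass (0.66, adjusted p = 0.14). PRKAR2A (chromosome 3, 48744597 to 48847846, minus strand), the type II subunit that docks the kinase to anchoring proteins, was at 50.1 and 57.3 CPM in NC, at 82.1 and 87.4 with si-circ235-1, and at 141 and 136 with si-circ235-2. The 3 conditions were stepped without overlap. It was higher with si-circ235-2 than in NC (log2 fold change 1.37, SE 0.18, adjusted p = 0.0018) and than with si-circ235-1 (0.71, SE 0.17, adjusted p = 0.0090), and missed the threshold with si-circ235-1 (0.66, SE 0.18, adjusted p = 0.052). With si-circ235-1 it was called under 6 of the alternatives tried, DESeq2 among them (0.68, adjusted p = 0.0086). The difference between the siRNAs shrank to 0.057 (adjusted p = 0.74) once the length and GC trend was removed, where the change with si-circ235-2 against NC was 0.68 (adjusted p = 0.0071). Its adjusted p between the siRNAs was 0.054 and 0.0501 without si-circ235-1 replicate 1 and 2.

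PRKAR1A (chromosome 17, 68511780 to 68551319, plus strand), the type I subunit, was at 109 and 125 CPM in NC, at 141 and 157 with si-circ235-1, and at 179 and 180 with si-circ235-2. Again no condition overlapped another. The log2 fold change with si-circ235-2 against NC was 0.62 (SE 0.18, adjusted p = 0.023), and it was not called without NC replicate 1 (0.52, adjusted p = 0.16) or without either si-circ235-2 library (0.62 each, adjusted p = 0.086 and 0.095). With si-circ235-1 it was 0.35 (SE 0.18, adjusted p = 0.24).

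The catalytic subunit genes passed in no comparison with NC. PRKACA (chromosome 19, 14091688 to 14118084, minus strand) was at 26.9 and 21.9 CPM in NC, at 18.5 and 11.5 with si-circ235-1, and at 23.5 and 19.4 with si-circ235-2, and gave -0.71 (SE 0.27, adjusted p = 0.14) for si-circ235-1, with -0.40 when si-circ235-1 replicate 2 was left out and -1.09 when replicate 1 was. PRKACB (chromosome 1, 84078062 to 84238498, plus strand) was at 16.2 and 16.9 CPM in NC, at 21.0 and 31.0 with si-circ235-1, and at 9.44 and 17.7 with si-circ235-2. It was lower with si-circ235-2 than with si-circ235-1 (-0.94, SE 0.31, adjusted p = 0.034), a call lost without si-circ235-1 replicate 2 (-0.63, adjusted p = 0.25), without si-circ235-2 replicate 1 (-0.56, adjusted p = 0.15) and by library totals without TMM factors (-0.58, adjusted p = 0.19); without si-circ235-2 replicate 2 it was -1.46. The PRKACB call was also lost with only the libraries of the 2 siRNAs in the fit (-0.91, adjusted p = 0.094). Replicates differed widely in the balance of PRKACA and PRKACB: PRKACA took 62.4% and 56.5% of the reads of the pair in NC, 46.8% and 27.1% with si-circ235-1, and 71.3% and 52.3% with si-circ235-2.

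Set against the regulatory genes, the catalytic genes took a smaller share of reads in all 4 siRNA libraries. PRKACA and PRKACB together held 21.3% (95% Wilson interval 19.9 to 22.8) and 17.6% (16.4 to 18.9) of the reads of the 4 kinase genes in NC, 15.01% (13.9 to 16.2) and 14.8% (13.9 to 15.8) with si-circ235-1, and 9.32% (8.61 to 10.1) and 10.5% (9.84 to 11.2) with si-circ235-2. Within the regulatory pair, PRKAR2A held 31.4% and 31.5% in NC, 36.8% and 35.8% with si-circ235-1, and 44.1% and 43.0% with si-circ235-2. Both shares were stepped in the same order of conditions, and they were given no test.

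**Figure D4:**
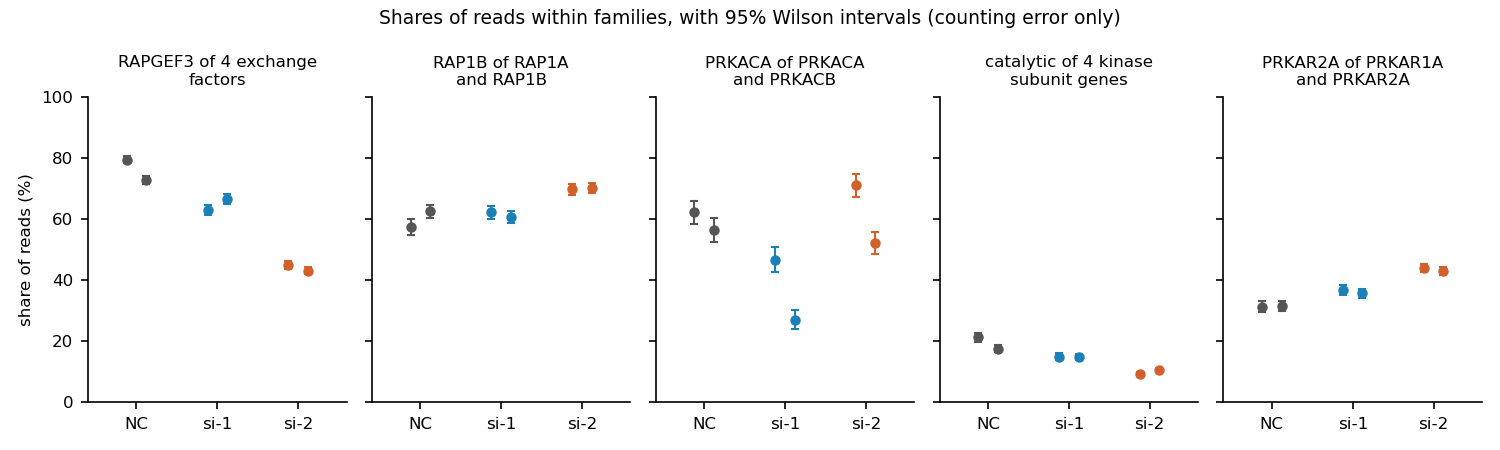
Share of reads (%, y axis from 0 to 100) held by the named genes within each family, with 1 dot per library and 95% Wilson intervals for counting error. RAPGEF3 is at 79.6% and 72.9% in NC and at 44.9% and 43.2% with si-circ235-2. Set against PRKAR1A and PRKAR2A alone, the catalytic subunit genes are at 21.3% and 17.6% in NC and at 9.32% and 10.5% with si-circ235-2.

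Transcript length and GC content differed among the members, and some of the values above changed when their trend was removed. The longest transcript of tested genes had a median length of 3354 bases and a GC content of 48.4%. RAPGEF3 had 6061 bases and a GC content of 59.2%, and RAPGEF1 had 6256 bases and 58.7%. For si-circ235-2 against NC, RAP1B (13438 bases) was the only member to lose its call when the trend was removed. Between the siRNAs, PRKAR2A (6471 bases) lost its call and RAPGEF2 (8225 bases) kept it. The part of length in these changes was not tested. With the trend removed, si-circ235-2 against NC gave 1.11 for RAPGEF1, 0.87 for RAPGEF2, 0.68 for PRKAR2A, 0.51 for PRKAR1A and -1.001 for RAPGEF3. For si-circ235-1 against NC, RAPGEF3 stood at -0.69.

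CREB factors switch on genes through the cAMP response element TGACGTCA, so the RefSeq promoters of the members (GRCh38.p14, 250 bases before to 50 after a start) were searched for this word, which reads the same on both strands, and for its shorter form TGACG on either strand. Of the 25 promoters of the 10 genes, 3 held the full word, against 1.85% of 35116 promoters, and 10 held the shorter form, against 24.6%; each full word contains the shorter form on both strands. The full word was in RAP1B, 12 bases before the start, and in a pair of overlapping PRKAR1A promoters that hold the same copy of it. Both genes were higher with si-circ235-2, but each call was lost under some alternatives given above. A link to the word was not tested. A RAP1B and a PRKAR1A promoter are shown with the word in capitals.
RAP1B, chr12:68610649-68610948, plus strand: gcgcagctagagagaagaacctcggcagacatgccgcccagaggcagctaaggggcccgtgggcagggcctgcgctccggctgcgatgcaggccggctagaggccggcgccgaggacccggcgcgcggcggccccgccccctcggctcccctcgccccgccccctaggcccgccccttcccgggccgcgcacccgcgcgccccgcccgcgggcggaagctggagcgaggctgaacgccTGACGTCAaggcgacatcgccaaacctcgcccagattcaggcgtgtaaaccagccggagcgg
PRKAR1A, chr17:68512180-68512479, plus strand: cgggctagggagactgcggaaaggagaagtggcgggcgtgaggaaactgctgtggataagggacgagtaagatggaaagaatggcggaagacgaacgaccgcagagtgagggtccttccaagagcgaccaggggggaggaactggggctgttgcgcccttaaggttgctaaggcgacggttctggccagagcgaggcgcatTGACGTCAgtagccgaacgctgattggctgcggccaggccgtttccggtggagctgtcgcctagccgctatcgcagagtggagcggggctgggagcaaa

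None of the 3 RAPGEF3 promoters held either word. No binding was measured, and a word in a promoter is a description only.

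Around these members, 95 other genes of Rap and cAMP signalling were listed, of which 70 could be tested. With si-circ235-1, 2 were higher and 3 lower (7.14% called, against 5.88% of all tested genes), and their median log2 fold change was 0.015. With si-circ235-2, 24 were higher and 5 lower (41.4% called, against 31.4%), with a median of 0.42 beside -0.0038 over all tested genes. Between the siRNAs 21 were higher and 8 lower with si-circ235-2 (41.4%, against 39.7%). By library totals without TMM factors the splits were 26 higher and 2 lower for si-circ235-2 against NC and 25 higher and 2 lower between the siRNAs. Without NC replicate 1, 0 of these genes were called for si-circ235-1 and 8 for si-circ235-2. The si-circ235-1 count was 1 when NC replicate 2 was left out, 0 when si-circ235-1 replicate 2 was and 10 without either si-circ235-2 library, and without si-circ235-1 replicate 2 the count between the siRNAs was 17. Of the calls with si-circ235-2 whose values are given for these genes, those of RAPGEF5, RAP2C, SIPA1L2, SIPA1, TLN2, PRKAR1B, PKIG, AKAP13, AKAP8L, ADCY3, PDE3B and PDE8A were lost without NC replicate 1.

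**Figure D5:**
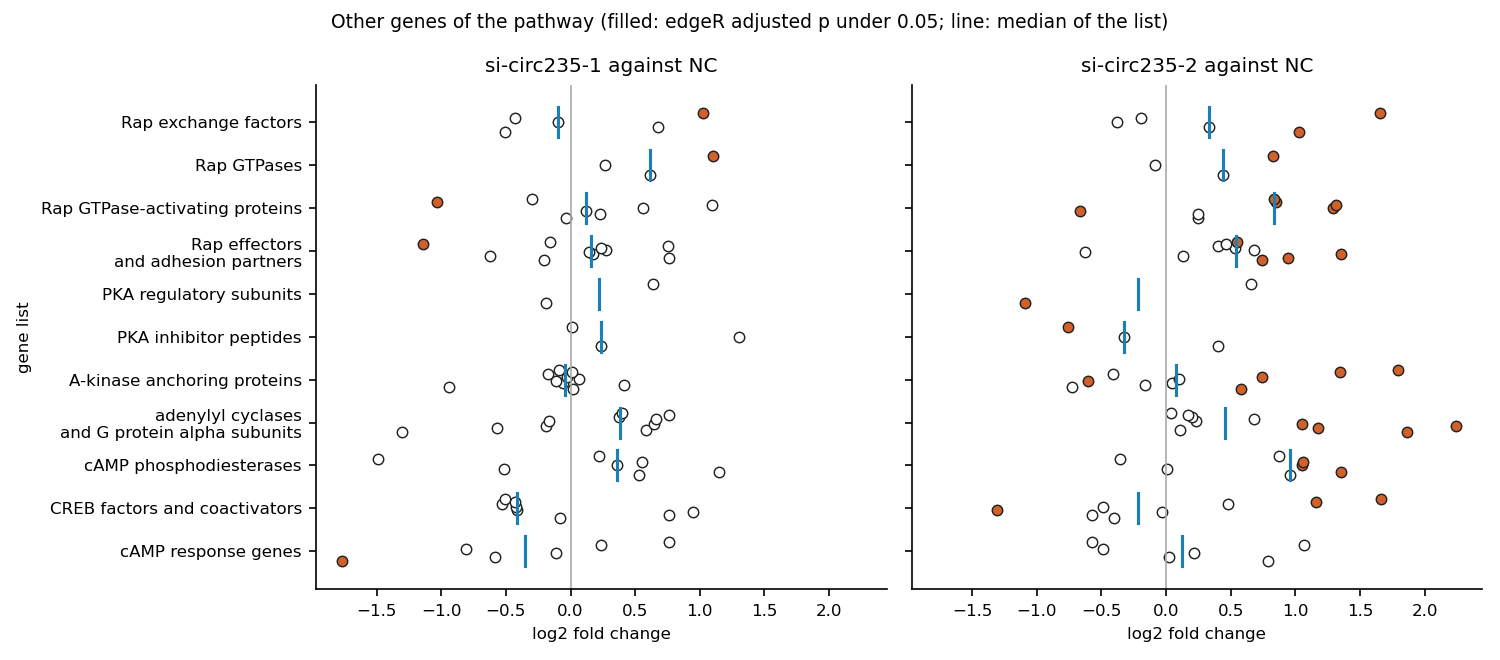
Fitted log2 fold change against NC (x axis) of the tested pathway genes other than the 10 members, by list (y axis); filled dots passed edgeR at an adjusted p under 0.05 and the vertical line is the median of the list. Of 70 genes, 5 are filled for si-circ235-1 and 29 for si-circ235-2, with all 4 called adenylyl cyclases on the higher side.

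Among the remaining Rap exchange factors, 2 of 5 tested were higher with si-circ235-2 and 0 lower, beside 15.7% of all tested genes in each direction. DOCK4, an exchange factor for Rap and Rac, was higher under both siRNAs (log2 fold change 1.03, adjusted p = 0.018, and 1.65, adjusted p = 0.0018), and RAPGEF5 was higher with si-circ235-2 (1.03, adjusted p = 0.020). Of the RAP2 genes, RAP2C was higher under both (1.10, adjusted p = 0.015, and 0.83, adjusted p = 0.010). The Rap GTPase-activating proteins, which switch Rap off, had 4 of 7 higher and 1 lower with si-circ235-2, where all tested genes gave 15.7% higher and 15.7% lower. SIPA1L2 (1.32) and SIPA1L1 (1.29) were the highest, and SIPA1 (-0.67) was the gene that fell, at -0.87 to -0.43 over left-out libraries and -0.43 without NC replicate 1. SIPA1L2 was low, at 1.97 and 2.14 CPM in NC. SIPA1L3 was lower with si-circ235-1 (-1.03, adjusted p = 0.018) and higher with si-circ235-2 (0.85, adjusted p = 0.0088), and the direct comparison of the siRNAs gave 1.88 (adjusted p = 0.00042). The si-circ235-1 calls of DOCK4, RAP2C and SIPA1L3 were lost without NC replicate 1 and without si-circ235-1 replicate 2. Over left-out libraries their si-circ235-1 values ran from 0.84 to 1.29, from 0.998 to 1.25 and from -1.20 to -0.88.

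Of 10 tested Rap effectors and adhesion partners, 4 were higher with si-circ235-2 and 0 lower, against a background of 15.7% each way, and AFDN (1.36), the afadin gene of cell junctions, and TLN2 (0.95), a talin that links integrins to actin, were among them. TLN2 was low, at 2.69 CPM in each NC library, and its call was lost by DESeq2. MINK1, a kinase bound by Rap2, was lower with si-circ235-1 (-1.14, adjusted p = 0.039), from 83.8 and 87.6 CPM in NC to 52.0 and 25.8. It ran from -1.73 to -0.72 over left-out libraries, the latter without si-circ235-1 replicate 2, and the call was lost there and without either NC library. In the other parts of the kinase, PRKAR1B, a further regulatory subunit, fell with si-circ235-2 (-1.09, adjusted p = 0.0053) while PRKAR1A and PRKAR2A rose. The inhibitor peptide gene PKIG fell (-0.76, adjusted p = 0.019). The A-kinase anchoring proteins, which tether the regulatory subunits, had 4 of 10 higher and 1 lower, against 15.7% of all tested genes in each direction. AKAP13 (1.79) and AKAP12 (1.34) were the highest and AKAP8L (-0.60) was lower, a call lost without any one of the 6 libraries.

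Of 10 tested adenylyl cyclases, which make cAMP, and G protein alpha subunits, 4 rose with si-circ235-2 and 0 fell, where 15.7% of all tested genes rose and 15.7% fell. All 4 were cyclases: ADCY7 (2.24, adjusted p = 0.0020), ADCY3 (1.86, adjusted p = 0.0039), ADCY6 and ADCY9. ADCY7 was low, at 1.71 and 2.57 CPM in NC and at 9.91 and 10.4 with si-circ235-2. ADCY3 was at 9.51 and 18.2 CPM in NC, at 7.41 and 3.91 with si-circ235-1, and at 52.1 and 48.8 with si-circ235-2, so the siRNAs lay on opposite sides of NC and differed by 3.16 (adjusted p = 0.00049), although the fall with si-circ235-1 did not pass (-1.30, adjusted p = 0.057). Phosphodiesterases, which break cAMP down, had 3 of 7 higher and 0 lower, against the same 15.7% each way, with PDE3B (1.35) and PDE8A (1.06) the highest. In NC, PDE3B was low, at 2.30 and 2.69 CPM. PDE3B was at 0.81 and not called without si-circ235-2 replicate 2.

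Of 8 CREB factors and coactivators, EP300 (1.66) and CREBBP (1.16), the paired acetyltransferases, rose with si-circ235-2 and CRTC1 (-1.31), a coactivator controlled by cAMP, fell, beside the 15.7% of all tested genes called in each direction. CREM and ATF1 were lower with si-circ235-2 than with si-circ235-1 (-1.33, adjusted p = 0.0016, and -0.98, adjusted p = 0.011). Of 6 cAMP response genes tested, 0 passed with si-circ235-2 against NC by edgeR and 0 by DESeq2, and 1, CREM, had an unadjusted p under 0.05. NR4A1, an immediate early gene, was lower with si-circ235-1 (-1.77, adjusted p = 0.047), from 6.10 and 9.72 CPM in NC to 3.57 and 1.17. Over left-out libraries it ran from -2.75 to -1.15, the latter without si-circ235-1 replicate 2, and the call was lost there, without either NC library and by library totals without TMM factors.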

How the data were processed

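Poly(A)-enriched RNA of T24 cells was sequenced by the authors without strand information, with 2 libraries per condition, and the deposited values are whole-number counts of reads per gene, not normalized. The submitters' processing notes name FastQC, cutadapt, STAR and hg38, while neither counter nor annotation is given in the sources used here. Counting without strand can mix reads of overlapping genes.

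Columns were matched to libraries by name and label. Of the gene identifiers, 99.47% matched GENCODE 29 (GRCh38), which gave symbols, exons, lengths and 3′ UTRs. The count model was edgeR 4.0.16 under R 4.3.3 (filterByExpr, TMM, 1 mean per condition over 6 libraries, quasi-likelihood test, Benjamini-Hochberg adjustment over 14415 genes, threshold 0.05). CPM used TMM-scaled totals, and marker levels used plain totals. Log2 CPM had a prior count of 2. Replicate libraries differed beyond sampling noise. DESeq2 1.42.0 and other settings served as alternatives, and the fit was tested on simulated data, where it missed most changes of the smaller size and made false calls more often than the threshold sets.

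The members and the 12 gene lists were chosen with earlier results of these data known. All members were named. From each list and comparison at most 2 genes with the lowest and 2 with the highest called changes were named, plus the genes overlapping a member and the 5 genes most like RAPGEF3; ADCY6, ADCY9 and the genes of lost or zero counts were named after their values were seen. Library totals were 15373992 to 19912893 counts, and with 2 libraries per condition their number limits the precision.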

Additional observations from a re-analysis of the deposited data

Results flagged for a closer look

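The following genes differed between the siRNAs when si-circ235-2 was compared directly with si-circ235-1 (edgeR, adjusted p under 0.05), a result shared by 39.7% of all tested genes. Among the members, RAPGEF2 (log2 fold change 1.60), RAPGEF1 (1.54) and PRKAR2A (0.71) were higher with si-circ235-2, and RAPGEF6 (-1.10) and PRKACB (-0.94) were lower. RAPGEF1 and RAPGEF2 overlapped NC with si-circ235-1 and stood above it with si-circ235-2, whereas PRKAR2A stood above NC under both siRNAs. With the length and GC trend removed, PRKAR2A was at 0.057 between the siRNAs (adjusted p = 0.74), and the other members named here kept their calls.

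Among the listed pathway genes, the cyclases ADCY3 (3.16) and ADCY7 (2.44), the response gene NR4A1 (2.56), the coactivators EP300 (2.17) and CREBBP (1.59), and the anchoring protein genes AKAP13 (1.89) and AKAP12 (1.33) were higher with si-circ235-2. So were the Rap regulators SIPA1L3 (1.88), RAPGEF5 (1.54), RASA3 (1.13) and DOCK4 (0.62), the effectors MINK1 (1.60) and AFDN (1.18), and the phosphodiesterase PDE7A (0.69). Lower with si-circ235-2 were the inhibitor peptides PKIB (-1.63) and PKIG (-0.77), the factors CREM (-1.33) and ATF1 (-0.98), the regulatory subunit PRKAR1B (-0.90), the Rap GTPase-activating protein SIPA1 (-0.78) and the G protein subunit GNAI2 (-0.59). PKIB was low, with means of 1.51 CPM (si-circ235-1) and 0.48 CPM (si-circ235-2). DESeq2 did not call PDE7A or PKIB, and PDE7A was not called in any fit that left out 1 library. PKIG was called by DESeq2 but not by library totals without TMM factors. DOCK4 changed sign when the length and GC trend was removed, as given below.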

How the results depend on the processing

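Over 13 alternatives, the 27 tested changes of the 9 members gave 351 values, of which 305 kept direction and side of the threshold, 22 lost the call, 12 gained one and 12 changed sign. With si-circ235-1 the members called were 0 under library totals without TMM and 0 (0 to 0) when single libraries were left out, but 1 (PRKAR2A) under DESeq2, DESeq2 size factors, no filter on low counts, the 2 conditions alone and removal of the length and GC trend. With si-circ235-2 the count ran from 3 to 5 over left-out libraries. Between the siRNAs it was 3 with the 2 conditions alone and 2 to 5 over left-out libraries. Pathway genes called with si-circ235-1 were 9 under DESeq2, 10 without a filter, 10 with the 2 conditions alone and 12 with the trend removed, and 0 to 10 over left-out libraries. With si-circ235-2 they ran from 8 to 25, and between the siRNAs from 17 to 27. All tested genes called with si-circ235-1, 847 here, were 1519 under DESeq2, 1678 without a filter, 1642 with the 2 conditions alone, 1969 with the trend removed, 74 and 134 without NC replicate 1 and 2, and 423 and 0 without si-circ235-1 replicate 1 and 2. Leaving out si-circ235-2 replicate 1 or 2 gave 1425 and 1482. With si-circ235-2 they were 769 without NC replicate 1 in place of 4530, and between the siRNAs 2817 without si-circ235-1 replicate 2 in place of 5725. Without TMM the splits over all tested genes were 179 higher and 529 lower, 3173 and 1294, and 4534 and 1496; with the trend removed they were 1189 and 780, 1615 and 2113, and 2477 and 3346. RAPGEF3 was at -0.69 with si-circ235-1 when the trend was removed and at -0.57 with si-circ235-2 without TMM; over left-out libraries it ran from -1.08 to -0.80 and from -0.98 to -0.68. The cause of these shifts was not tested.

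The changes of sign were all in values that passed in neither setting, except DOCK4 between the siRNAs, at -0.029 with the trend removed. With si-circ235-1 they were RAPGEF1 at 0.020 with the trend removed and RAPGEF2 at -0.067 without TMM, and over left-out libraries RAPGEF2 ran from -0.24 to 0.27 and RAPGEF6 from -0.11 to 0.44. With si-circ235-2 they were RAP1A at -0.026 and INKA2 at -0.22 with the trend removed and PRKACA at 0.074 without TMM, and over left-out libraries RAP1A ran from -0.072 to 0.18 and PRKACB from -0.81 to 0.095. Between the siRNAs they were RAP1A at 0.095 without TMM and INKA2 at -0.53 with the trend removed, and INKA2 ran from -0.067 to 0.17 over left-out libraries.

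The libraries share replicate numbers, but differences between replicate 1 and 2 correlated across conditions by -0.094, 0.15 and 0.14, so the numbers were not taken as pairs. With the replicate number as a block, 1, 6 and 5 members and 6, 30 and 30 pathway genes were called, with RAPGEF3 at -0.96 and -0.83. Over all 14415 tested genes the counts called were 937, 4750 and 6043 in the same order of comparisons. The members that gained a call were PRKAR2A with si-circ235-1 (0.66, adjusted p = 0.046) and RAPGEF6 with si-circ235-2 (-1.05, adjusted p = 0.031).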
